A study of Mus musculus with 15 samples.

Results

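Microglia, the resident phagocytes of the brain, were sorted from WT and 5xFAD mice. Described here is the share of the tRNA counts in their small RNA libraries that came from 10 mitochondrial tRNA genes. The 10 genes were given by name and were chosen by their UMI counts in these libraries, with values of the contrast of TG Me-X04+ with TG Me-X04− cells already known, so for that contrast all values are a description and no p is given. The comparison of TG Me-X04+ with WT uses the same TG Me-X04+ libraries. Its p values for the members are therefore not independent of that choice. They are 10 of 283 tRNA entries in the deposited tRNA table and 10 of the 16 mitochondrial tRNA genes listed there, out of 22 that the mitochondrial genome encodes. A UMI (unique molecular identifier) is a random tag that marks 1 captured molecule, and all levels below are UMIs of an entry as a percent of all tRNA UMIs of its library. The 10 together took 12.3% ± 6.59 of tRNA UMIs in WT, 8.16% ± 3.52 in the dye-negative and 2.92% ± 0.73 in the dye-positive 5xFAD libraries (SD, n = 5 each), most of it from mt-Ts2, the tRNA for the AGY serine codons.

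Cells positive for CD11b and CD45 were sorted after mice had been injected with Methoxy-X04, a dye that binds amyloid and enters the brain. TG mice carry the 5xFAD transgenes, a model of familial Alzheimer disease driven by the neuronal Thy1 promoter, and their cells were sorted into a dye-positive fraction that held amyloid (TG Me-X04+) and a dye-negative fraction (TG Me-X04−). The WT cells were dye-negative and carry no transgene. There were 5 libraries in each of the 3 groups, 15 in all, and each of the 5 TG mice gave 1 library to both TG groups. The labels give an age of 2 months for WT and 6 months for TG mice, while the methods of the study give other ages, so genotype and age cannot be told apart in either comparison with WT. In bulk libraries of sorted cells, fewer cells with a given RNA and less of that RNA per cell cannot be told apart.

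Mitochondrial DNA is transcribed from both strands into long precursors in which tRNAs stand between the ribosomal RNAs and the mRNAs, and cutting the tRNAs out frees the RNAs beside them. Each tRNA then receives the letters CCA at its 3′ end, is modified, and serves only the ribosomes inside the mitochondrion. Short RNA libraries mostly capture pieces of tRNAs, and the pieces of a mitochondrial tRNA reach the table under the gene they match.

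The members with their transcript identifiers, all on chromosome MT of GRCm38, were as follows. On the plus strand lay mt-Tl1 (ENSMUST00000082391, positions 2676 to 2750), which decodes the UUR leucine codons, mt-Ti (ENSMUST00000082393, 3706 to 3774) for isoleucine, mt-Tm (ENSMUST00000082395, 3845 to 3913) for methionine, mt-Th (ENSMUST00000082415, 11546 to 11612) for histidine and mt-Ts2 (ENSMUST00000082416, 11613 to 11671) for the AGY serine codons. On the minus strand lay mt-Tq (ENSMUST00000082394, 3772 to 3842) for glutamine, mt-Tn (ENSMUST00000082399, 5089 to 5159) for asparagine, mt-Ts1 (ENSMUST00000082403, 6870 to 6938) for the UCN serine codons, mt-Te (ENSMUST00000082420, 14071 to 14139) for glutamate and mt-Tp (ENSMUST00000082423, 15356 to 15422) for proline. Each is a single tRNA exon. mt-Th and mt-Ts2 follow each other with no base between them, mt-Ti and mt-Tq overlap by 3 bases on opposite strands, and mt-Tl1 lies directly between mt-Rnr2, the large ribosomal RNA, and mt-Nd1. Copies of mitochondrial DNA in the nuclear genome share these sequences, and how the counting treated them is not given in the sources used here.

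Sequences are shown for the genes on which the results turn, namely the most abundant member and the second, both lower in TG Me-X04+ cells, and a member that passed no test. They are the GENCODE vM21 transcripts, written 5′ to 3′, and capitals mark the anticodon, found as the 3 expected letters after C or T and before A or G in the middle of the gene.
mt-Ts2: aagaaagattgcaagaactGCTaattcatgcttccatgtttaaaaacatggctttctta
mt-Tm: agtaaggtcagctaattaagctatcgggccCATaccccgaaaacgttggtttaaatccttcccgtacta
mt-Tl1: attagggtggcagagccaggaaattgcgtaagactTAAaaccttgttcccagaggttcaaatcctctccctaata
mt-Ts2 is 59 nt long against 67 to 75 nt for the other 9, and the serine AGY tRNA of mammals is known to lack the D arm. Its GC content of 32.2% lies within the range of the members, 27.5% (mt-Ti) to 44.9% (mt-Tm), and mt-Tl1 with 44.0% is close to mt-Tm.

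The tRNA depth differed between the groups, from 10033 to 27744 UMIs in WT, 8736 to 16438 in the TG Me-X04− and 5552 to 9050 in the TG Me-X04+ libraries. No deposited entry lay between 1 and 9 UMIs, so an entry listed at 0 can hold up to 9, and the smallest share that could be listed ran from 0.036% in the deepest library to 0.18% in the shallowest. These limits cover counting only. The 4 myeloid miRNA markers were above 0 in every library, with a summed level of 88828 to 119156 CPM of miRNA and piRNA UMIs in WT, 103844 to 115614 in the TG Me-X04− and 59226 to 73482 in the TG Me-X04+ libraries. The 3 erythroid markers summed to 41.4 to 89.5, 32.0 to 197 and 133 to 375 CPM in the same order, with miR-144-3p and miR-144-5p at 0 in some libraries of every group, and the 3 oligodendrocyte markers to 276 to 372, 199 to 414 and 365 to 639 CPM. The 5 neuronal markers summed to 1349 to 3327, 1492 to 2230 and 1204 to 1856 CPM, and the 4 endothelial and mural markers to 69.8 to 326, 57.3 to 183 and 83.4 to 331 CPM. The part of these differences in the results below was not tested.

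mt-Ts2 dominated the members. In WT libraries it took 7.06, 19.2, 11.5, 7.60 and 3.71% of tRNA UMIs, on 708, 1963, 1935, 1142 and 1030 UMIs. In TG Me-X04− libraries its shares were 2.21, 10.9, 5.73, 5.94 and 6.69%, and in TG Me-X04+ libraries 1.55, 2.92, 1.65, 2.70 and 1.69%, the latter on 86 to 196 UMIs. Every TG Me-X04+ library was therefore below every WT library, and its range overlapped that of TG Me-X04− only through the dye-negative cells of mouse TG1 at 2.21%. Within each of the 5 TG mice the dye-positive share was the lower one, and the dye-negative share was 1.43 to 3.96 times as large.

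The group means of mt-Ts2 were 9.82% ± 5.93 in WT, 6.30% ± 3.11 in the TG Me-X04− and 2.10% ± 0.65 in the TG Me-X04+ libraries (SD, n = 5 each). In the fit across all tRNA entries mt-Ts2 had a lower level in TG Me-X04+ than in WT cells, at -2.54 on the log2 scale (SE 0.42, adjusted p = 0.000268, edgeR quasi-likelihood test with Benjamini-Hochberg adjustment). The same TG Me-X04+ libraries entered the choice of the members, so this p is not independent of that choice. Against TG Me-X04− the fitted value was -1.83 (SE 0.41). Between TG Me-X04− and WT it was -0.71 (SE 0.39, adjusted p = 0.78, edgeR), and the ranges overlapped.

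mt-Tm, the tRNA that both starts and extends mitochondrial proteins with methionine, showed the same order of groups at a lower level. Its WT shares were 0.568, 1.51, 1.01, 1.35 and 0.465%, its TG Me-X04− shares 0.331, 0.712, 0.572, 0.937 and 0.803%, and its TG Me-X04+ shares 0.450, 0.297, 0.253, 0.273 and 0.309%. The highest TG Me-X04+ library, from mouse TG1, lay just under the lowest WT library, and it was the only one of the 5 mice in which the dye-positive share exceeded the dye-negative one. The means were 0.980% ± 0.461 in WT, 0.671% ± 0.232 in the TG Me-X04− and 0.317% ± 0.078 in the TG Me-X04+ libraries (SD, n = 5 each). mt-Tm had a lower level in TG Me-X04+ than in WT cells, at -1.93 on the log2 scale (SE 0.33, adjusted p = 0.000268, edgeR), with the same limit on its p as for mt-Ts2. The fitted value was -1.31 (SE 0.34) against TG Me-X04−. Between TG Me-X04− and WT it was -0.63 (SE 0.29, adjusted p = 0.78, edgeR).

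mt-Tl1 did not follow this order. Its shares were 0.179, 0.147, 0.232, 0.266 and 0.144% in WT, 0.161, 0.249, 0.378, 0.319 and 0.360% in the TG Me-X04− and 0.252, 0.208, 0.240, 0.239 and 0.199% in the TG Me-X04+ libraries, on 14 to 41 UMIs throughout. All 3 ranges overlapped, and the TG Me-X04+ libraries lay inside the range of WT. The fitted log2 fold change between TG Me-X04+ and WT was -0.07 (SE 0.28, adjusted p = 0.88, edgeR), its sign turned under other scalings, and an interval of 2 SE around it reached from a fall to a rise. Between TG Me-X04− and WT it was 0.48 (SE 0.26, adjusted p = 0.78, edgeR), the only positive value among the 10 members, and between the TG groups it was -0.56 (SE 0.28).

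**Figure D1:**
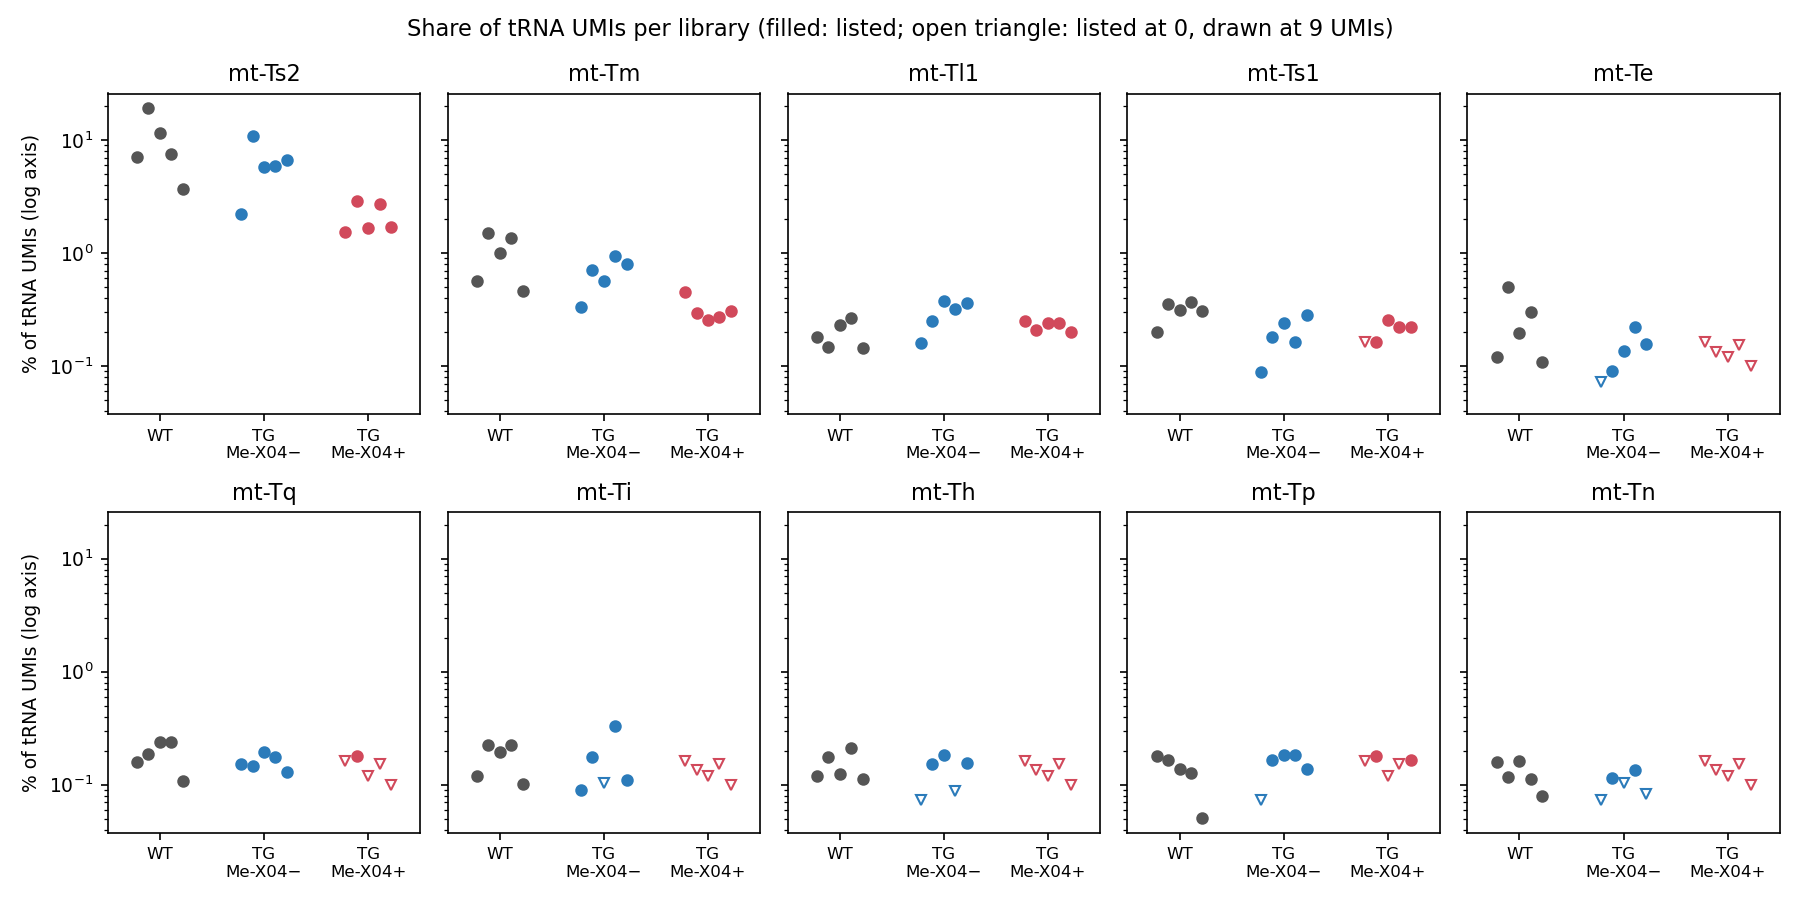
Percent of tRNA UMIs of each of the 10 mitochondrial tRNAs in every library (log axis, 5 libraries per group). Filled points are listed values, and open triangles are entries listed at 0, drawn at the 9 UMIs they could hold. mt-Ts2 and mt-Tm are lower in all 5 TG Me-X04+ libraries than in all 5 WT libraries, and mt-Tl1 is not. Most but not all triangles of mt-Ti, mt-Th, mt-Te and mt-Tn lie among the listed WT values.

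Ratios of members within a library do not depend on the scaling or the tRNA depth. There were 25.8 to 131 mt-Ts2 UMIs per mt-Tl1 UMI in WT libraries (median 39.3), 13.7 to 43.8 in the TG Me-X04− (median 18.6) and 6.14 to 14 in the TG Me-X04+ libraries (median 8.5). The WT libraries were all above the TG Me-X04+ libraries, and the TG groups overlapped narrowly. For mt-Tm per mt-Tl1 the ranges were 3.17 to 10.3, 1.52 to 2.94 and 1.06 to 1.79 in the same order, so that WT stood apart from both TG groups. The ratio of mt-Ts2 to mt-Tm overlapped among all 3 groups, with medians of 11.4, 8.33 and 6.53. These ratios were chosen after the values were seen and are given with no test.

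**Figure D2:**
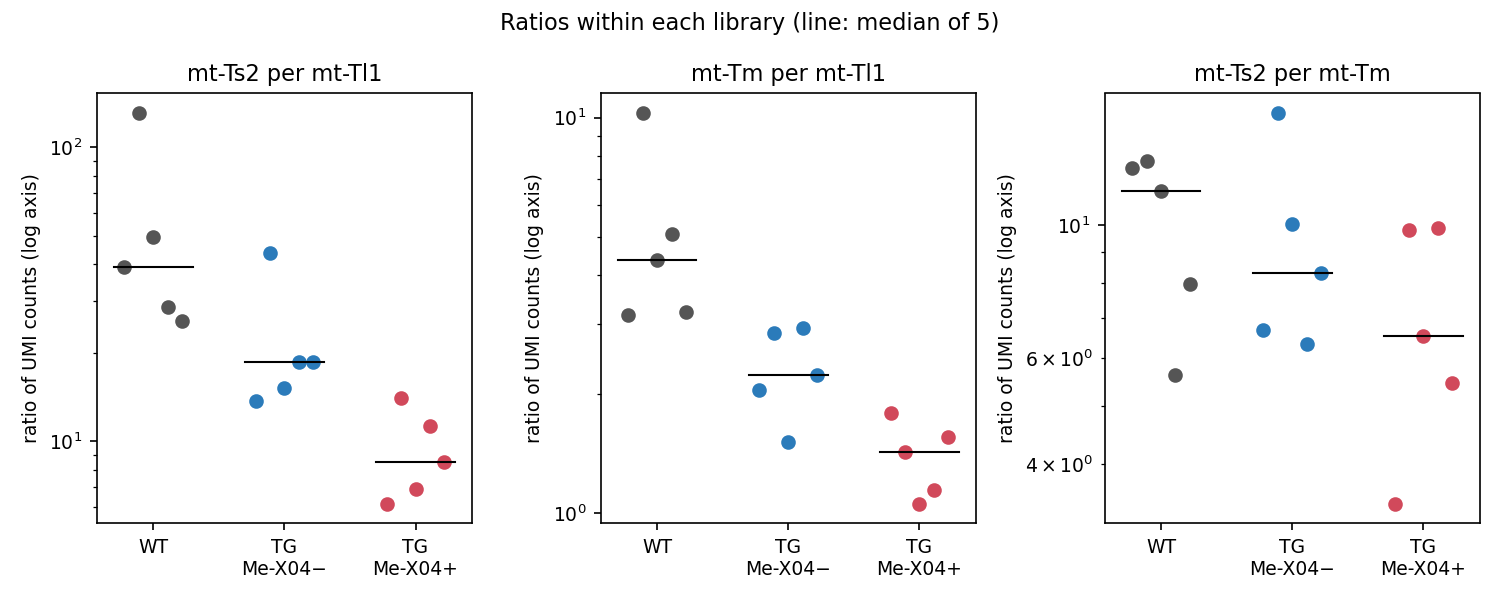
Ratios of UMI counts between members within each library (log axes), with the median of 5 libraries as a line. mt-Ts2 per mt-Tl1 falls from a WT median of 39.3 to 18.6 in the TG Me-X04− and 8.5 in the TG Me-X04+ libraries, and mt-Ts2 per mt-Tm overlaps among the groups.

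mt-Ts1, the second serine tRNA of the mitochondrion, was listed in 14 of 15 libraries. Its shares were 0.199, 0.352, 0.315, 0.373 and 0.306% in WT, 0.0888, 0.182, 0.240, 0.164 and 0.286% in the TG Me-X04− and 0 (at most 0.162), 0.164, 0.253, 0.222 and 0.221% in the TG Me-X04+ libraries. The groups overlapped, with both TG groups toward the lower end. The log2 fold change between TG Me-X04+ and WT was -1.10 (SE 0.42, adjusted p = 0.075, edgeR) and missed the threshold, which DESeq2 passed with -1.04 (adjusted p = 0.021), and its adjusted p ran from 0.014 to 0.41 over the alternatives that kept every library of these groups. The value between the TG groups was -0.31 (SE 0.44).

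mt-Tq and mt-Tp were listed at 0 in most TG Me-X04+ libraries. mt-Tq had 16, 19, 40, 36 and 30 UMIs in WT, 19, 24, 17, 18 and 14 in the TG Me-X04− and 12 UMIs in 1 TG Me-X04+ library, from mouse TG2, where it reached 0.178%. That share lay within the TG Me-X04− range of 0.129 to 0.195%. mt-Tp had 14 to 23 UMIs in WT, 15 to 27 in 4 of 5 TG Me-X04− libraries and 12 and 15 UMIs in 2 TG Me-X04+ libraries. With every 0 set to 9 UMIs the means of mt-Tp were 0.132% in WT, 0.148% in the TG Me-X04− and 0.156% in the TG Me-X04+ libraries, so the listed zeros leave its direction undecided. Neither gene passed the threshold in the edgeR fit of TG Me-X04+ against WT, where the adjusted p was 0.079 for mt-Tq and 0.59 for mt-Tp. For mt-Tq the threshold was passed in DESeq2 (adjusted p = 0.0106) and in edgeR with no filter (0.0362), and its adjusted p reached 0.25 in the fit of read counts. With 1 TG Me-X04+ library above 0, mt-Tq was tested mainly on counts of the other groups, so its gap was largely built in as well.

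A 0 stood in all 5 TG Me-X04+ libraries for mt-Ti, mt-Tn, mt-Te and mt-Th, which were above 0 in all 5 WT libraries. In TG Me-X04− cells mt-Ti was listed in 4 libraries, mt-Te in 4, mt-Th in 3 and mt-Tn in 2. These 4 genes entered the fit through their WT and TG Me-X04− counts alone, so a gap to TG Me-X04+ was built into their selection.

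The limits of the lists decide how much of that gap can be stated. mt-Te had 12, 51, 33, 45 and 30 UMIs in WT, a mean of 0.245% ± 0.162 (SD, n = 5). The TG Me-X04+ libraries could hold at most 0.0994 to 0.162% each, a mean of 0.134%, so mt-Te was at least 1.83-fold lower than in WT, or 1.35-fold without WT replicate 2. For mt-Ti, with 12, 23, 33, 34 and 28 UMIs and a mean of 0.174% ± 0.059 in WT, the bound was at least 1.30-fold lower, and for mt-Th, with 12, 18, 21, 32 and 31 UMIs and 0.149% ± 0.044, at least 1.11-fold lower, a bound that was lost without WT replicate 4 (0.133%). For mt-Tn, with 16, 12, 27, 17 and 22 UMIs and 0.126% ± 0.034, the WT mean was below what the TG Me-X04+ zeros allow, and no direction follows. Against TG Me-X04− no direction follows. The mean of mt-Ti (0.141%) was 1.05 times the allowed 0.134%, but fell below it without the library of mouse TG4 (0.0940%) or TG2 (0.132%). Those of mt-Te (0.122%, or 0.152% without mouse TG1), mt-Th (0.0984%) and mt-Tn (0.0502%) were below it. Single libraries of every one of these genes in WT lay under the highest share a TG Me-X04+ zero allows.

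**Figure D3:**
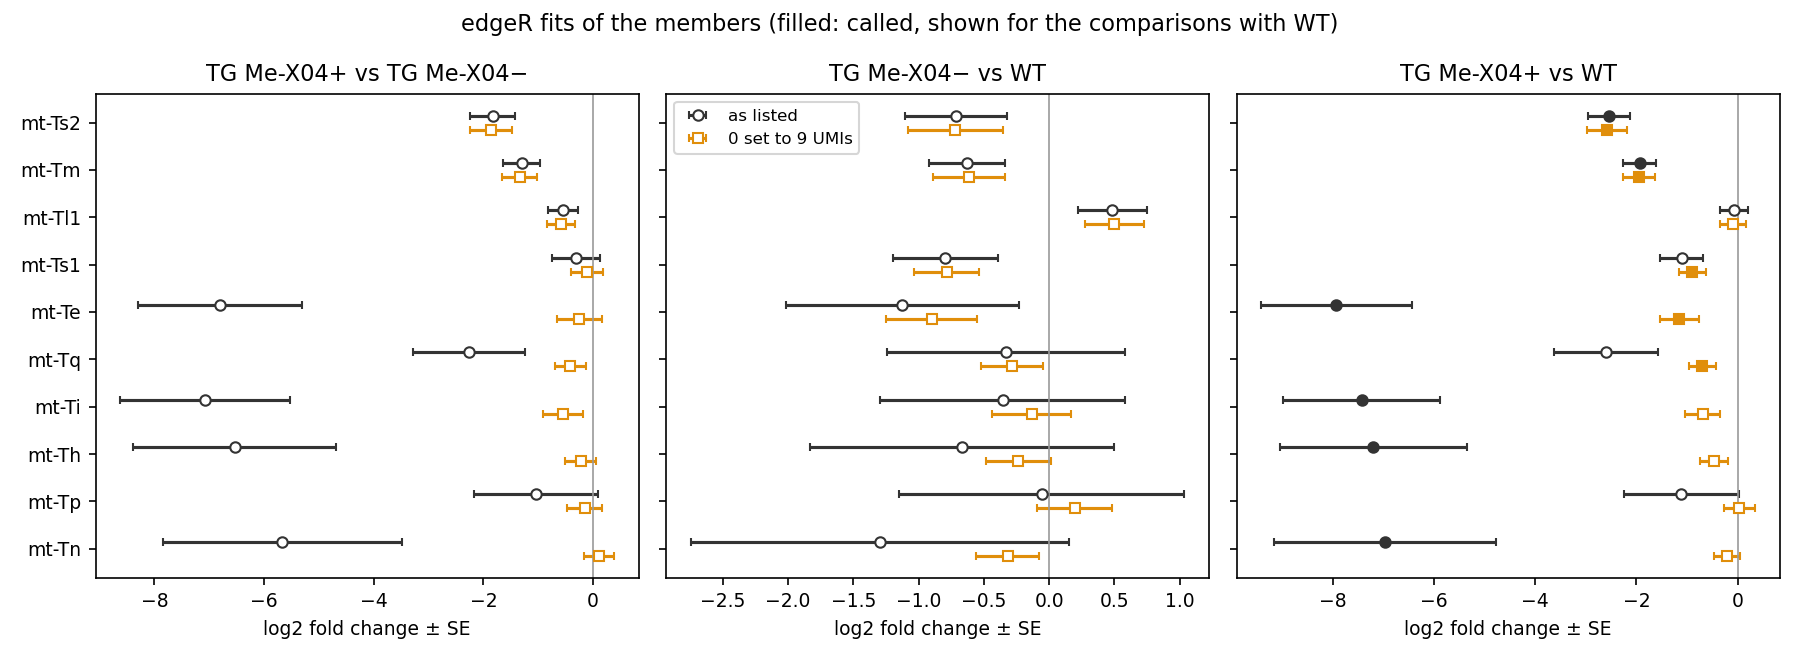
Fitted log2 fold change ± SE of each member in the 3 comparisons, with zeros as listed (circles) and with zeros set to 9 UMIs (squares), where filled symbols in the comparisons with WT passed the adjusted p threshold of 0.05 and a size of 0.7 in edgeR. All symbols between the TG groups are open, since those values were used to choose the members. mt-Ts2 and mt-Tm keep their place, while the values near -7 of mt-Ti, mt-Th and mt-Te move to between -1.2 and -0.2 and so depend on how a 0 is counted. mt-Tn, at -6.97 against WT and -5.67 against TG Me-X04−, depends on it too. Its value against TG Me-X04− turns to 0.11 with zeros set to 9 UMIs.

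In the fit across all 161 tRNA entries that passed the low-count filter, mt-Ts2 and mt-Tm were called lower in TG Me-X04+ than in WT cells, with edgeR thresholds of 0.05 for the adjusted p and 0.7 for the size of the log2 fold change. These calls rest on TG Me-X04+ libraries that also entered the choice of the members, and are not independent of it. The 4 genes listed at 0 in every TG Me-X04+ library were past the same thresholds, which makes 6 of 10, but their gap was built in by the filter. Over all entries 26 (16.1%) were called, 19 of them lower (11.8%), and the 6 are not read against that share. With zeros set to 9 UMIs, an alternative chosen after seeing the data, 5 members were called, beside 42 of 161 entries, 16 of them lower. They were mt-Ts2, mt-Tm, mt-Te (log2 fold change -1.15), mt-Ts1 (-0.90, adjusted p = 0.014, edgeR) and mt-Tq (-0.70). For mt-Te every TG Me-X04+ value was a set one, and for mt-Tq all but 1, so no p is given for them. Nothing is read from the count of 5. The call of mt-Tn, whose gap was built in, was lost without WT replicate 1 or 3, and nothing is read from it. mt-Ts1 passed without WT replicate 1 (adjusted p = 0.0413, edgeR), the dye-negative library of TG1 (0.0412) or the dye-positive one of TG3 (0.0482). mt-Tq passed without the dye-positive library of TG2, the only TG Me-X04+ library that listed it. That left only zeros in the group, so the gap of this fit was built in by the filter. The median log2 fold change of the members was -2.57, and -0.69 with zeros at 9, beside -0.14 and -0.01 over all entries. Both member medians include the 4 genes listed at 0 in every TG Me-X04+ library, and mt-Tq, listed in only 1. The medians are a description, and no shift of the members as a set is read from them.

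Between TG Me-X04− and WT no member and no other tRNA entry was called (0 of 161, 0%) in edgeR, with 5 entries at an unadjusted p under 0.05, and DESeq2 called 0 as well. All values but that of mt-Tl1 were negative, from -0.06 for mt-Tp to -1.30 for mt-Tn, with a median over the 10 members of -0.65 beside -0.05 over all entries. The ranges of all 10 members overlapped with those of WT.

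For TG Me-X04+ against TG Me-X04− cells, whose values had been used to choose the members, the fitted log2 fold changes are a description. The median over the 10 members was -2.05, beside -0.10 over all entries, and 5 of 10 members lay lower past the same limits of adjusted p and size, beside 21 of 161 entries in either direction (13%) and 15 lower (9.32%), from which nothing is read about the members. In the paired fit of the 10 TG libraries with the mouse as replicate block the fitted values were -1.67 (SE 0.18) for mt-Ts2 and -1.23 (SE 0.24) for mt-Tm, with 2 members past the limits, and 4 members did not pass the low-count filter of that fit. With zeros set to 9 UMIs the median over the members was -0.33 and mt-Tn had a positive value of 0.11. The scaling shifted all entries together, with a median over all entries of -0.10 under TMM and 0.09 under library size, and the split of the 21 entries was 6 higher and 15 lower under the first and 12 higher and 9 lower under the second.

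Summed over the 10 members, WT libraries held 8.86, 22.6, 14.1, 10.8 and 5.19% of tRNA UMIs, TG Me-X04− libraries 3.04, 12.9, 7.62, 8.41 and 8.83% and TG Me-X04+ libraries 2.25, 3.94, 2.40, 3.43 and 2.59%. The highest TG Me-X04+ library was below the lowest WT library, and the dye-negative cells of mouse TG1 at 3.04% lay inside the TG Me-X04+ range. The means were 12.3% ± 6.59, 8.16% ± 3.52 and 2.92% ± 0.73 (SD, n = 5 each). On the log2 scale the mean of TG Me-X04+ was 1.94 below WT (log2 difference -1.94, pooled SD 0.61) and 1.38 below TG Me-X04− (-1.38, pooled SD 0.60), while TG Me-X04− differed from WT by -0.57, less than the pooled SD of 0.78. In all 5 TG mice the dye-positive sum as listed was the lower, with a dye-negative sum 1.35 to 3.42 times as large. With zeros at 9 UMIs the group means were 12.3, 8.30 and 3.68%, the TG Me-X04+ libraries at up to 4.48% were still below every WT library, and the dye-positive sum was the lower in 4 of 5 mice, with 3.33% against 3.39% the other way in mouse TG1.

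**Figure D4:**
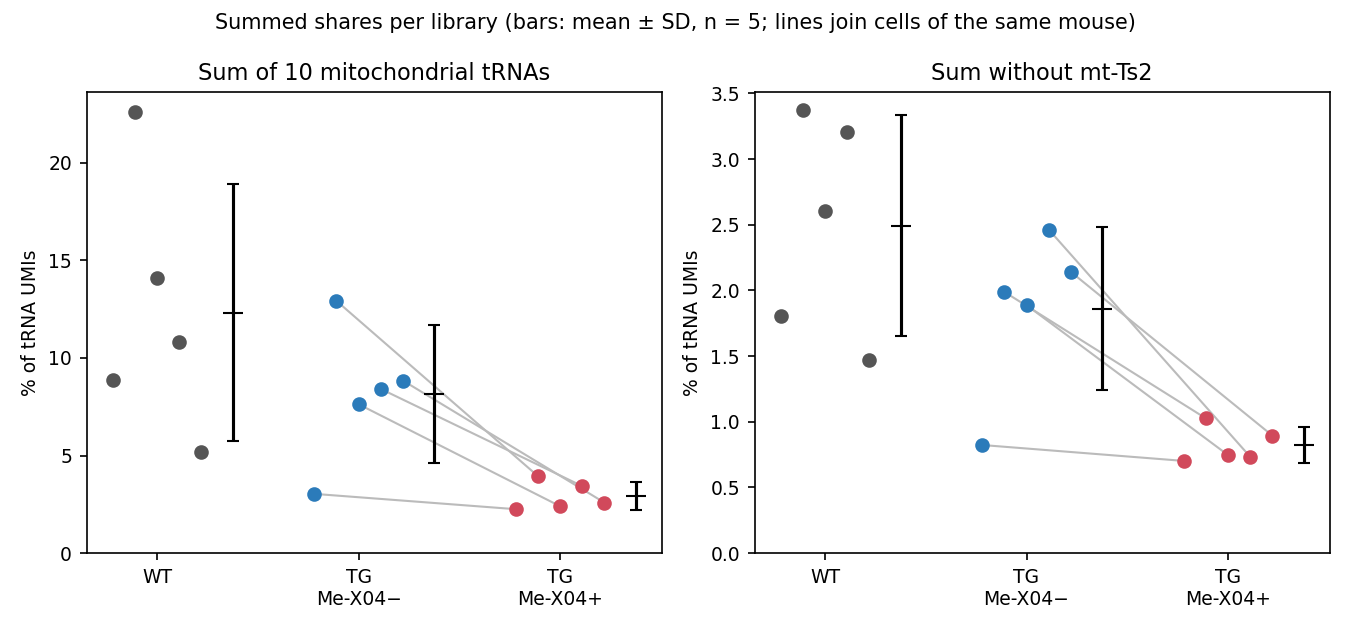
Percent of tRNA UMIs taken by the 10 members together (left) and by the 9 members other than mt-Ts2 (right) in each library, with mean ± SD of 5 libraries and lines that join both fractions of a TG mouse. Each 0 is drawn as 0, and the lines fall in all 5 mice, from 3.04 to 2.25% in mouse TG1 and from 12.9 to 3.94% in mouse TG2 for the sum of 10. With zeros at 9 UMIs, which is not drawn, both sums of mouse TG1 would rise, from 3.33 to 3.39% and from 1.11 to 1.84%.

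mt-Ts2 made up 70.3 to 85.1% of the member UMIs in WT, 70.7 to 84.6% in the TG Me-X04− and 65.4 to 78.6% in the TG Me-X04+ libraries. With zeros at 9 UMIs the TG Me-X04+ range was 45.7 to 65.1%, below every WT library, so whether the ranges overlap depends on how a 0 is counted. Without it the sums were 2.49% ± 0.84, 1.86% ± 0.62 and 0.821% ± 0.137 (SD, n = 5 each), and 2.49, 1.99 and 1.58% with zeros at 9 UMIs. The 4 plus-strand members other than mt-Ts2 summed to 1.50% ± 0.58, 1.20% ± 0.39 and 0.544% ± 0.089, and the 5 minus-strand members to 0.998% ± 0.266, 0.658% ± 0.243 and 0.277% ± 0.195 (SD, n = 5 each). With zeros at 9 UMIs the plus-strand sums were 1.50, 1.26 and 0.812% and the minus-strand sums 0.998, 0.738 and 0.771%, so on the minus strand the order of the TG groups is undecided. The plus-strand sum with zeros at 9 was the lower in dye-positive cells of 4 of 5 mice. In mouse TG1 it was the higher there, with 1.03% against 0.654%, and also as listed, with 0.702% against 0.581%.

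Per 10 nt of gene, the order of levels in WT was mt-Ts2 (1.66% of tRNA UMIs), mt-Tm (0.142%), mt-Ts1 (0.0448%), mt-Te (0.0354%), mt-Tq (0.0262%), mt-Tl1 (0.0258%), mt-Ti (0.0252%), mt-Th (0.0222%), mt-Tp (0.0197%) and mt-Tn (0.0177%). The first 2 stood clear of the rest in every WT library, and neighbours from mt-Ts1 downward differed by less than their spread between libraries. In TG Me-X04+ libraries the order began with mt-Ts2 (0.356%), mt-Tm (0.0459%), mt-Tl1 (0.0304%) and mt-Ts1 (0.0249%), so mt-Tl1 stood directly below mt-Tm.

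A piece of mt-Th was also found outside the tRNA table. Among 1971 mapped sequences that the pipeline had left uncharacterised, each listed with its own sequence, 1 matched a member gene in full apart from its tail. In the gene, capitals mark the stretch that this sequence holds, and in the fragment they mark the letters past the end of the gene.
mt-Th: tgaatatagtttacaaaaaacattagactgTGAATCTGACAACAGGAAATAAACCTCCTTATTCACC
mt-Th fragment: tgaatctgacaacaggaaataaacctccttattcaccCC
The fragment is 39 nt long, starts at base 31 of the gene inside the anticodon (bases 30 to 32), runs to the last base of the gene at position 11612 and ends in 2 added letters, CC, the start of the CCA tail of tRNAs. It covers the 3′ side of the tRNA from the anticodon on.

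The fragment had 16, 17, 39, 44 and 42 UMIs in WT libraries, 11, 23, 25, 20 and 17 in TG Me-X04− libraries and 15 UMIs in 1 TG Me-X04+ library (mouse TG3), with 0 in the other 4. As CPM of the summed miRNA, tRNA and other RNA UMIs this was 35.6 ± 10.2 in WT, 27.7 ± 11.2 in TG Me-X04− and, with zeros as 0, 6.35 ± 14.2 in TG Me-X04+ libraries (SD, n = 5 each). The highest value a TG Me-X04+ library can hold was 31.7, inside the WT range of 23.9 to 47.1. The fragment is listed in a separate table from the mt-Th entry, which held 114 UMIs in WT and 58 in TG Me-X04− libraries against 158 and 96 for the fragment. In the TG Me-X04− libraries of mice TG1 and TG4 and the TG Me-X04+ library of mouse TG3 the fragment had 11, 20 and 15 UMIs while the mt-Th entry stood at 0. For the other members the tables do not say which part of the tRNA the counted pieces came from.

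**Figure D5:**
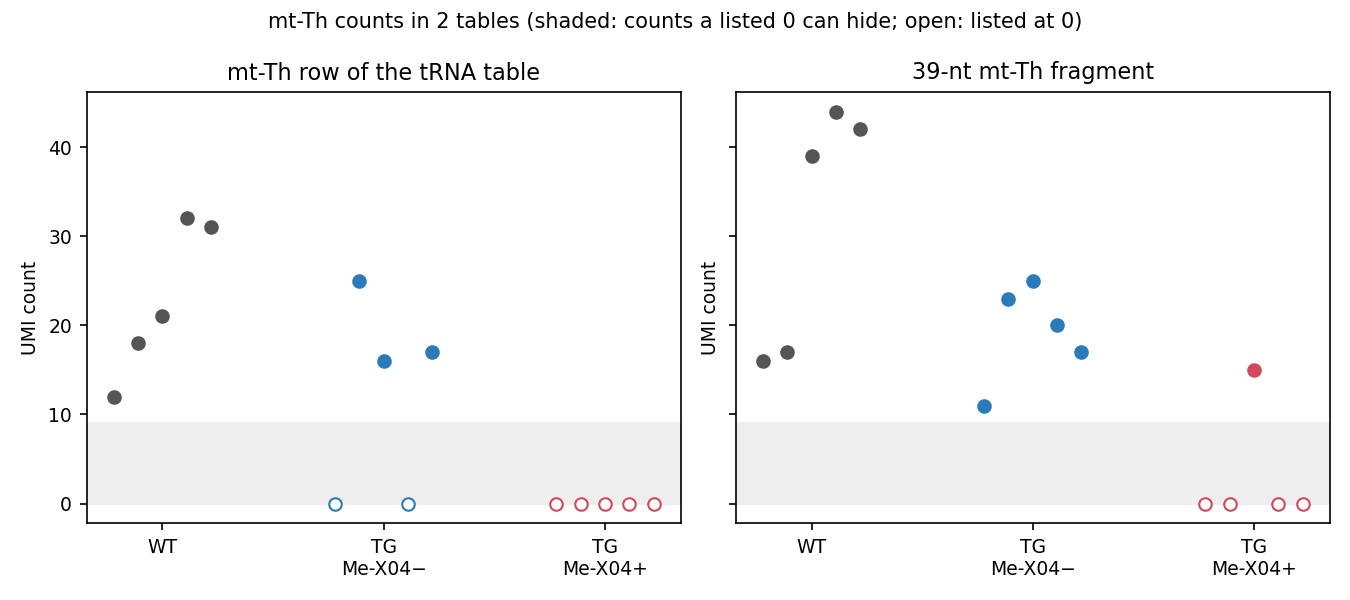
UMI counts per library of the mt-Th entry of the tRNA table (left) and of the 39-nt mt-Th fragment from the uncharacterised sequences (right), with open points listed at 0 and shading over the counts that a 0 can hide. The fragment is listed in all WT and TG Me-X04− libraries at 11 to 44 UMIs and in 1 TG Me-X04+ library at 15.

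The 6 mitochondrial tRNA genes of the table that are not members were mt-Tv, mt-Ta, mt-Tc, mt-Td, mt-Tg and mt-Tr. All 6 stood at 0 throughout the TG Me-X04+ group and had at most 31 UMIs in any other library. At the border, the member with the fewest UMIs was mt-Tn with 127 in 7 libraries, and mt-Tg, which also passed the low-count filter, had 129 in 7 libraries without being a member. Of the 15 mitochondrial ribosomal RNA and mRNA genes, 0 had an entry in the table of other RNAs, and precursors were not analysed here. Of the 5 uncharacterised sequences that the table places on the mitochondrial genome, 1 was the mt-Th fragment, 2 of 21 and 22 nt lay in mt-Rnr2 and 2 of 20 and 21 nt lay on the minus strand in no annotated gene.

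Of the 9 amino acids that the members carry, only methionine had nuclear tRNA entries whose summed share, with each 0 counted as 0, had the same order of groups. The 19 nuclear serine entries summed to 1.73% ± 0.22 of tRNA UMIs in WT, 1.87% ± 0.35 in the TG Me-X04− and 2.65% ± 0.86 in the TG Me-X04+ libraries (SD, n = 5 each), and both mitochondrial serine tRNAs together gave 4.90, 3.70 and 0.823 UMIs per nuclear serine UMI. The 19 nuclear leucine entries summed to 2.34% ± 0.43, 2.56% ± 0.37 and 2.83% ± 0.45. The 5 nuclear methionine entries, initiator included, summed to 0.538% ± 0.121, 0.452% ± 0.092 and 0.215% ± 0.129, and mt-Tm gave 1.54, 1.52 and 1.42 UMIs per nuclear methionine UMI. They were listed at 0 in 20 of 25 cases in the TG Me-X04+ libraries, and with zeros at 9 UMIs the sums were 0.666, 0.661 and 0.757%, so neither that order nor the last ratio is settled. Nuclear tRNA as a whole took 1.55% ± 0.10, 1.48% ± 0.09 and 1.61% ± 0.06 of the UMIs of all tables, and the 10 members 0.227% ± 0.140, 0.134% ± 0.068 and 0.0485% ± 0.0127.

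By the rank of CPM over the 15 libraries, the tRNA entries outside the members most like mt-Ts2 were tRNA-Glu-CTC-1-5 (Spearman's rho 0.81), mt-Tg (0.80) and tRNA-Lys-TTT-5-1 (0.76), as a description over libraries that share 1 scaling and fall into 3 groups. Of the other 9 members, 8 had a rho of 0.71 to 0.88 with mt-Ts2, and mt-Tl1 had 0.25. tRNA-Glu-CTC-1-5 had 239 to 426 UMIs in WT, 183 to 472 in the TG Me-X04− and 62 to 133 in the TG Me-X04+ libraries, and the copies of this nuclear gene share sequence, so the copy is uncertain.

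Reads per UMI of the members and of nuclear tRNA were close in median. They were 9.0 and 8.83 in WT, 9.27 and 8.99 in the TG Me-X04− and 10.5 and 11.3 in the TG Me-X04+ libraries, members first.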

How the data were processed

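The authors made the counts from QIAseq miRNA libraries sequenced single-end, with reads trimmed, aligned, assigned and collapsed by UMI at the Qiagen Data Analysis Center, on GRCm38. The deposited tables hold UMI counts and read counts per entry. The aligner and the rule behind the missing counts of 1 to 9 are not given in the sources used here. The study's own tests used edgeR 3.24.3.

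Here 283 tRNA entries in 15 libraries were fitted together with edgeR 4.0.16 (R 4.3.3) after filterByExpr, which kept 161, with TMM factors, the quasi-likelihood test and Benjamini-Hochberg adjustment over the 161. DESeq2 1.42.0 was an alternative. SEs were taken from the F statistic. The fit was also run on simulated counts, with means and spread taken from these data. The check made there covered only counts without the limit on listed UMIs, and no result here rests on it. Shares, bounds and ratios were computed in Python 3.11.15 from the UMI counts. A bound sets the mean share of the compared group, with its zeros at 0, against the TG Me-X04+ mean with each 0 at 9 UMIs. Members, gene lists and tests were chosen with earlier results of these data known. All 10 members are named. Libraries were grouped by their labels, and both TG fractions of a mouse pair through the labelled mouse. The correlation of same-mouse deviations over tRNA entries was 0.00535 to 0.174. Replicate pairs differed by more than counting noise, with a chi-square of at least 2.21 for each degree of freedom. WT libraries are labelled as separate mice. 1 separator row without values was left out of the miRNA table. The class totals per library were not used.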

Additional observations from a re-analysis of the deposited data

Results flagged for a closer look

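Each group of 5 libraries was checked for a highest or lowest library that stood apart by more than 0.71 of the group's whole range, for the share of every member, their sum and the mt-Th fragment. Chance flags about 1 in 20 groups, a rate that does not hold for groups with entries at 0, and 4 libraries stood apart in the 32 groups checked. A single listed library among zeros stands apart by construction, which holds for mt-Tq and the mt-Th fragment below. The flag of mt-Tp counts a listed 0 as 0. mt-Tp was listed at 0 in TG Me-X04− replicate 1 (0%, at most 0.0727% by the 9-UMI limit) against 0.138 to 0.184% in the other 4. mt-Tq was listed in TG Me-X04+ replicate 2 alone (0.1785%), just above the smallest share that library can list, 0.149%. mt-Tm was highest in TG Me-X04+ replicate 1 (0.4503%) against 0.253 to 0.309% in the other 4. The mt-Th fragment was listed in TG Me-X04+ replicate 3 alone (15 UMIs).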

How the results depend on the processing

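The alternatives were other scalings, DESeq2, no filter, reads, fits of 2 groups, leaving out each library and, for the TG pair, a replicate block, plus 2 chosen after seeing the data, scaling from nuclear tRNA entries and zeros set to 9 UMIs. The number of members past the limits in TG Me-X04+ against TG Me-X04−, a description since that contrast chose them, went from 5 to 2 in the fit of these groups alone (6 members tested), to 2 under the replicate block and to 2 with zeros at 9, and leaving out a library gave 4 to 6. In the same order of the first 4 fits, 21 of 161, 11 of 130, 19 of 130 and 25 of 161 entries in all were past the limits. Against WT member calls were 6, beside 26 of 161 entries in all. They were 8 in DESeq2 (33 of 161 entries), 8 with no filter (36 of 283) and 4 in the fit of 2 groups (8 members tested, 15 of 137 entries). With zeros at 9 they were 5 (42 of 161 entries), and with a library left out 5 to 7. Between TG Me-X04− and WT member calls were 0 under every alternative run. Calls over all tRNA entries went from 21 to 11 in the fit of 2 groups (11 to 28 with a library left out, with 11 when the dye-negative library of mouse TG2 was out and 13 when the dye-negative one of TG1 or the dye-positive one of TG3 was), from 26 against WT to 15 in the fit of 2 groups and 42 with zeros at 9 (20 to 30 with a library left out), and from 0 to 1 between TG Me-X04− and WT with no filter (0 to 1 with a library left out, 1 without WT replicate 2). The replicate block gave 19 calls over all entries in place of 21. The cause of these moves was not tested, except that the fits of 2 groups tested fewer entries.

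The fitted value of mt-Tl1 in TG Me-X04+ against WT turned to 0.2203 with library size, 0.129 with the total of all tables, and to 0.01443 and 0.03837 when WT replicate 4 or WT replicate 3 was left out (-0.1843 to 0.03837 over all libraries left out). That of mt-Tp in TG Me-X04− against WT turned to 0.02342 with library size, 0.1944 with zeros at 9, and 0.06505 and 0.2335 when WT replicate 2 or the dye-negative library of TG1 was left out (-0.2708 to 0.2335 over all), and to 0.03862 in TG Me-X04+ against WT with zeros at 9. mt-Tn in TG Me-X04+ against TG Me-X04− turned to 0.1086 with zeros at 9. None of these was called.

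The difference in the summed share kept its direction and moved by less than the spread under all alternatives run. With a library left out it was -1.697 to -1.175 for TG Me-X04+ minus TG Me-X04−, -2.212 to -1.681 for TG Me-X04+ minus WT and -0.8367 to -0.2454 for TG Me-X04− minus WT. Counting an entry as present only at the share that the shallowest library can list, 0.18%, left 27 of 50 member entries in WT, 23 of 42 in TG Me-X04− and 18 of 22 in TG Me-X04+ libraries.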
